A study of Mus musculus with 12 samples.

Results

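Adipokines are proteins that fat tissue secretes. The 8 adipokine genes described here are Lep, Adipoq, Retn, Cfd, Rbp4, Nampt, Apln and Rarres2. They were found by symbol in a table of 32238 mouse genes, and all 8 were among the 20297 genes that passed the filter on low counts. Transcripts were counted by RNA sequencing in gonadal white adipose tissue, the visceral fat next to the gonads. The 4 groups were mice with a macrophage-specific knockout of Bnip3 (MKO) on a high-fat diet (HFD), wild-type (WT) mice on HFD, MKO mice on normal chow (NCD) and WT mice on NCD, with 3 biological replicates and 1 library each. All mice began their diet at 8 weeks of age and ate it for 12 weeks. Bnip3 encodes a mitochondrial receptor for autophagy. The labels do not name the Cre driver behind the knockout, the strain or the composition of the diets, and transcripts of whole fat do not check a deletion in macrophages.

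Adipocytes make most of these proteins. Leptin tells the brain how much fat is stored, and its gene is more active in larger adipocytes. Adiponectin raises insulin sensitivity and usually falls in obesity, and resistin, a product of adipocytes in the mouse but mainly of macrophages in humans, opposes insulin action. Adipsin is complement factor D, retinol-binding protein 4 carries vitamin A in blood, and Nampt makes the precursor of NAD. Apelin and chemerin, the product of Rarres2, are ligands of G protein-coupled receptors.

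The libraries held 52.9 to 72.7 M counts, and 2 features of them touch the results below. Every WT NCD library carried epididymis transcripts, with a summed level of 12 markers of 6366 to 7729 CPM (counts scaled to a library of 1 M), against 20.3 CPM or less in each of the other 9 libraries. In MKO NCD replicate 2, 57.3% of the table's genes had no count, against 15.6 to 38.3% in the other libraries. The 16 adipocyte markers were present in every group. Their summed level was 50788 to 58377 CPM in MKO HFD, 39263 to 49003 CPM in WT HFD, 52435 to 58804 CPM in MKO NCD and 28224 to 43007 CPM in WT NCD. In bulk tissue fewer cells of a type and less RNA per cell cannot be told apart.

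In WT mice HFD raised Lep and Rarres2 and lowered Cfd and Retn. On HFD, MKO fat held more Retn, Cfd and Rbp4 transcript than WT fat, and on NCD it held more Lep and Nampt. Epididymis RNA was carried by all WT NCD libraries, so its part cannot be told apart from diet in WT or genotype on NCD. The calls of Lep and Nampt ended with the libraries scaled to adipocyte markers or with only the 6 NCD libraries. The Rbp4 call ended under that scaling too. In MKO mice HFD lowered Cfd and Nampt, and both calls ended with only the 6 MKO libraries. Lep and Rarres2 were also higher on HFD in MKO, without overlap between the diets, but edgeR did not call them. For no member did edgeR call a difference between the diet effects of the 2 genotypes. A gene is called higher or lower here when its adjusted p is below 0.05 in the quasi-likelihood test of edgeR, with Benjamini-Hochberg adjustment over all 20297 genes, and each change is given as a log2 fold change, with SE for its standard error.

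On HFD, 3 of the 8 members were called higher in MKO than in WT and none lower, in a comparison that called 3.57% of all genes, 1.34% higher and 2.24% lower. On NCD, 2 members were called higher in MKO and none lower, where 4.35% of all genes were called, 2.22% higher and 2.13% lower. In WT mice HFD against NCD called 2 members higher and 2 lower. That comparison called 17.8% of all genes, 9.50% higher and 8.28% lower. In MKO mice HFD against NCD called 2 members lower and none higher, where 2.01% of all genes were called, 1.04% higher and 0.966% lower. The 3 libraries of each group serve in 2 of these comparisons, so the 4 counts are not independent of each other.

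Member values that did not overlap between groups were frequent, as they were among all genes. The 3 MKO and the 3 WT libraries did not overlap for 5 members on HFD (33.2% of all genes) and for 4 members on NCD (25.2% of all genes). HFD and NCD libraries did not overlap for 7 members in MKO (24.2% of all genes) and for 5 in WT (47.0% of all genes). For MKO against WT on HFD the median change over the 8 members was 0.79, where the median of all genes was 0. On NCD it was 0.72 over the members and -0.14 over all genes. Over the 16 adipocyte markers the median was 0.49 on HFD and 0.61 on NCD, so a rise is not particular to the members. Over 36 other genes for proteins secreted by fat it was -0.74 on HFD and 0.10 on NCD. The members were chosen with earlier results of these data known.

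**Figure D1:**
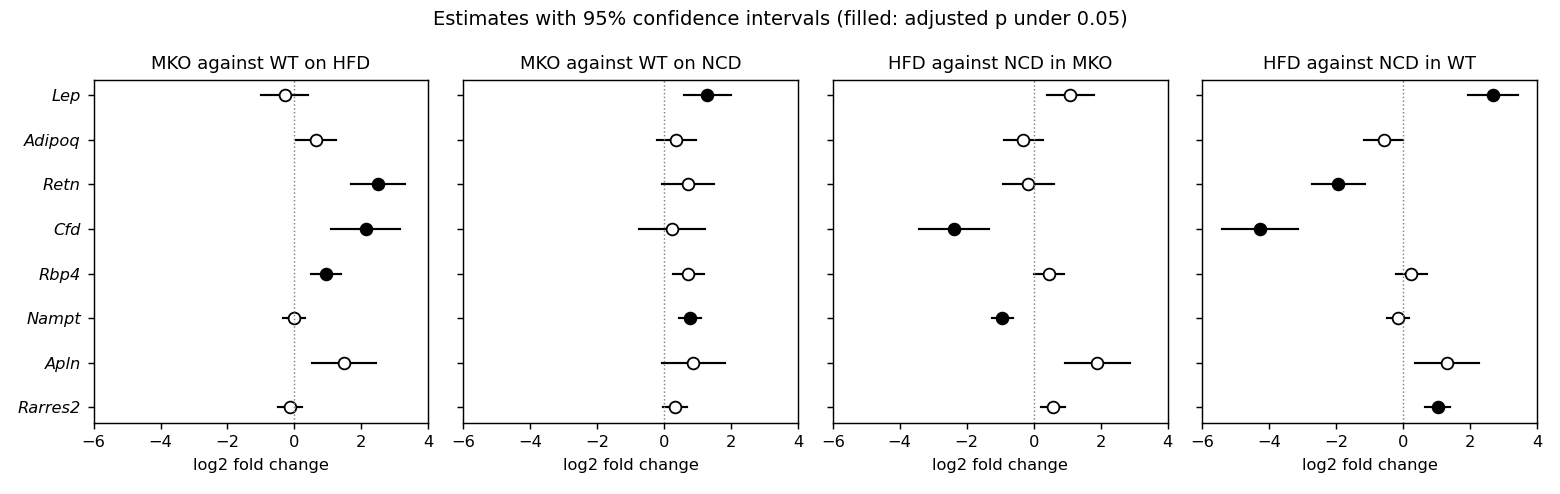
Log2 fold changes of the 8 adipokine genes (rows) in 4 comparisons (panels), with 95% confidence intervals from the fit of all 12 libraries and filled points where adjusted p is below 0.05. Filled points lie right of 0 for Retn, Cfd and Rbp4 in MKO against WT on HFD, and left of 0 for Retn and Cfd in HFD against NCD in WT.

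Lep lies on chromosome 6 (29060221 to 29073876, GRCm38.p6, the genome mm10) and encodes leptin. Its level was 3090, 3899 and 4660 CPM in MKO HFD libraries, against 5352, 4348 and 4526 CPM in WT HFD libraries. On NCD it was 1962, 2490 and 1010 CPM in MKO, against 512, 728 and 992 CPM in WT. All 6 HFD libraries stood above all 6 NCD libraries, and the lowest MKO NCD library stood just above the highest WT NCD library. HFD raised Lep in WT by 2.67 (SE 0.34, adjusted p = 5.82e-04). In MKO the diet difference was 1.09 (SE 0.32, adjusted p = 0.118), with no overlap between the 3 HFD and the 3 NCD libraries. DESeq2 called this difference (1.08, adjusted p = 0.0174).

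Lep was called higher in MKO than in WT on NCD, at 1.29 (SE 0.32, adjusted p = 0.0489). This call stood in 2 of the 12 fits that leave out 1 library, those without WT NCD replicate 3 or MKO NCD replicate 3. It ended without any of the other 10 libraries, at adjusted p 0.0593 to 0.141, with 0.141 without WT NCD replicate 1 and 0.112 without MKO NCD replicate 2. Of 10 other settings the NCD call stood in 3. Among the settings that ended it were RLE (adjusted p = 0.0615) and upper-quartile size factors (0.0517) and the replicate block (0.0995). Scaling to adipocyte markers (0.121) and the fit of only the 6 NCD libraries (0.183) ended it too. On HFD the groups overlapped and the difference was -0.29 (95% confidence interval -0.99 to 0.41, adjusted p = 0.819). The interaction, which tests whether the diet difference is the same in both genotypes, was -1.58 (SE 0.45, adjusted p = 0.135). DESeq2 called it, at adjusted p = 0.0197.

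Adipoq (chromosome 16, 23146536 to 23157968) encodes adiponectin. It read 2681, 2711 and 2748 CPM in MKO HFD and 1929, 1230 and 2051 CPM in WT HFD. Chow libraries read 2988, 3474 and 3594 CPM in MKO and 1734, 3784 and 2269 CPM in WT. The MKO HFD libraries all exceeded the WT HFD libraries, while WT NCD spanned the whole range of MKO NCD. None of the 7 comparisons made here called it. MKO against WT gave 0.64 on HFD (SE 0.27, adjusted p = 0.270) and 0.37 on NCD (SE 0.26, adjusted p = 0.501), and HFD against NCD gave -0.58 in WT (95% confidence interval -1.16 to 0.00, adjusted p = 0.162). Averaged over diets MKO against WT was 0.51 (adjusted p = 0.133), and 0.0224 without WT NCD replicate 2, the library with 3784 CPM. HFD against NCD was called lower in WT without WT NCD replicate 1 (-0.82, adjusted p = 0.0479) and with the libraries scaled to adipocyte markers (-0.84, adjusted p = 0.0109). Averaged over genotypes it was called lower in the same settings, at -0.56 (adjusted p = 0.0356) and -0.57 (adjusted p = 0.0127).

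Retn (chromosome 8, 3655770 to 3659818) encodes resistin. It read 1339, 1298 and 797 CPM in MKO HFD and 192, 103 and 315 CPM in WT HFD. Its NCD values were 1288, 1213 and 1351 CPM in MKO and 678, 1024 and 644 CPM in WT. The WT HFD libraries were the lowest 3 of the 12, and the lowest MKO HFD library was above the highest of them by more than the whole range within WT HFD. MKO against WT on HFD was 2.49 (SE 0.37, adjusted p = 0.0108), a 5.62-fold difference. Without MKO HFD replicate 1 or 2 the adjusted p was 0.0552 or 0.0547, and without the 3 WT NCD libraries the difference was 2.51 (adjusted p = 0.0149).

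HFD lowered Retn in WT by a log2 value of -1.94 (SE 0.36, adjusted p = 0.00405), and this call stood in all 12 fits without 1 library. In MKO the same diet difference was -0.17 (95% confidence interval -0.93 to 0.60, adjusted p = 0.864), and the groups overlapped. The difference between these diet effects was 1.78 (SE 0.49, adjusted p = 0.126), which edgeR did not call and DESeq2 called at adjusted p = 0.00948. On NCD the 3 MKO libraries all exceeded the 3 WT libraries, at 0.72 (SE 0.35, adjusted p = 0.290). Averaged over diets MKO against WT was 1.60 (SE 0.25, adjusted p = 0.00518), a call that stood without any 1 library, at an adjusted p of 0.0167 or less.

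**Figure D2:**
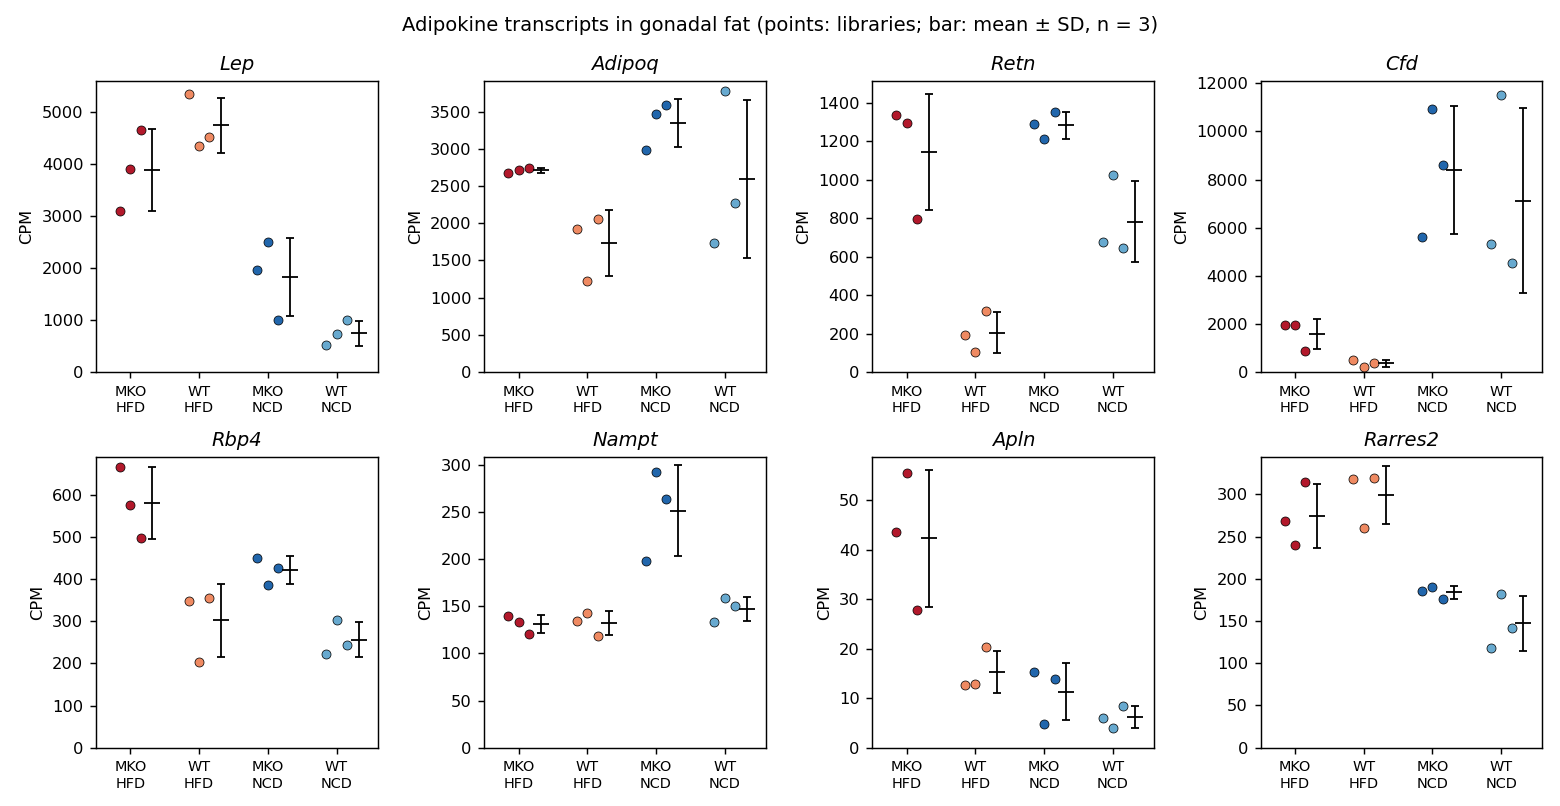
CPM of the 8 adipokine genes in each of the 12 libraries (points) by group, with the mean and SD of 3 libraries beside them. Retn and Cfd are lowest in WT HFD, Nampt is highest in MKO NCD and Apln is highest in MKO HFD, where its mean is 42.3 CPM.

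Rbp4 (chromosome 19, 38116620 to 38125321) encodes the plasma carrier of retinol. It read 667, 575 and 498 CPM in MKO HFD and 347, 203 and 356 CPM in WT HFD. On NCD it read 451, 386 and 427 CPM in MKO and 221, 302 and 244 CPM in WT. MKO libraries exceeded WT libraries without overlap on both diets. MKO against WT was 0.94 on HFD (SE 0.21, adjusted p = 0.0362) and 0.72 on NCD (SE 0.21, adjusted p = 0.0786).

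The HFD call of Rbp4 ended without any 1 of 6 libraries. These were MKO NCD replicate 1 (adjusted p = 0.0555) or 3 (0.0543), WT HFD replicate 1 (0.0655) or 2 (0.115), and MKO HFD replicate 1 (0.153) or 2 (0.141). Averaged over diets the difference was 0.83 (SE 0.15, adjusted p = 0.00878) and passed without each of the 12 libraries, at 0.0271 or less. Scaled to adipocyte markers it was 0.35 (adjusted p = 0.0576) and was not called. The diet differences of Rbp4 were 0.46 in MKO (adjusted p = 0.292) and 0.24 in WT (95% confidence interval -0.22 to 0.70, adjusted p = 0.486). All 6 MKO libraries exceeded all 6 WT libraries.

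Cfd (chromosome 10, 79890853 to 79892655) encodes adipsin, the protease that cleaves factor B and so starts the amplification loop of complement. It read 1974, 1944 and 881 CPM in MKO HFD and 511, 205 and 383 CPM in WT HFD. The NCD libraries held 5625, 10940 and 8602 CPM in MKO and 5313, 11527 and 4522 CPM in WT. The groups fell into 3 tiers that did not overlap, with the NCD groups highest, MKO HFD between, and WT HFD lowest, and the NCD groups overlapped each other. HFD lowered it in WT by a log2 value of -4.28 (SE 0.52, adjusted p = 4.98e-04), a 19.4-fold difference, and in MKO by -2.39 (SE 0.48, adjusted p = 0.0327), a 5.24-fold difference. The difference between the diet effects was 1.89 (SE 0.64, adjusted p = 0.219 with edgeR and 0.0382 with DESeq2).

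MKO against WT on HFD gave a Cfd difference of 2.13 (SE 0.47, adjusted p = 0.0353). It was 2.14 (adjusted p = 0.0288) without the 3 WT NCD libraries. The call ended without MKO NCD replicate 3 (0.0539), without WT HFD replicate 1 (0.065), 2 (0.163) or 3 (0.0911), and without MKO HFD replicate 1 (0.137) or 2 (0.149). The fall with diet in MKO ended without MKO NCD replicate 2 (0.064) or 3 (0.0887), WT HFD replicate 3 (0.0519) or any of the MKO HFD replicates (0.0859 to 0.112). It also ended with the replicate block (0.0586) or with only the 6 MKO libraries (0.0689). The fall in WT stood in all 12 fits without 1 library. On NCD the genotypes differed by 0.24 (95% confidence interval -0.76 to 1.23, adjusted p = 0.808), and without WT NCD replicate 3 by -0.01.

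Per transcript length, in the TPM of the authors (a length-scaled measure), Cfd was the most abundant adipokine transcript on NCD. Its mean was 17819 ± 4729 TPM in MKO NCD and 16852 ± 7642 TPM in WT NCD (SD, n = 3 each), or 1.78% and 1.69% of all transcripts, and it ranked 8th and 4th among all genes. On HFD it was 3252 ± 1120 TPM in MKO and 831 ± 320 TPM in WT, at rank 31 and 115. In MKO HFD the levels of Adipoq (4192 ± 330 TPM), Retn (3634 ± 758 TPM), Cfd and Lep (2287 ± 609 TPM) followed each other, with neighbours differing by less than the larger of their SDs. In WT HFD Lep (3066 ± 234 TPM) and Adipoq (2957 ± 668 TPM) led and did not differ beyond their spread, followed by Cfd, Rarres2 (768 ± 71.6 TPM) and Retn (719 ± 372 TPM). Nampt and Apln were the least abundant members in each of the 4 groups, at 54.7 to 109 TPM and 4.47 to 25.3 TPM.

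RefSeq promoters (GRCm38.p6, from 250 bases before to 50 after the gene's start) were found for 7 of the 8 members. Shown are those of the 3 members with the largest diet differences in WT, Lep, which rose, and Retn and Cfd, which fell. All 3 are on the plus strand, at chr6:29059971-29060270, chr8:3655520-3655819 and chr10:79890603-79890902. Capitals mark matches to any of the 6 motifs searched on both strands.
Lep: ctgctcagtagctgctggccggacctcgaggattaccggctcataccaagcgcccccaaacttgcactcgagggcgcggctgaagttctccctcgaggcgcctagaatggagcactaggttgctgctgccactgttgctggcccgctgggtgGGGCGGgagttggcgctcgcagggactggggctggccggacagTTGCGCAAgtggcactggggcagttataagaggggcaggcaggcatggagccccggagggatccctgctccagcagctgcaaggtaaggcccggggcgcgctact
Retn: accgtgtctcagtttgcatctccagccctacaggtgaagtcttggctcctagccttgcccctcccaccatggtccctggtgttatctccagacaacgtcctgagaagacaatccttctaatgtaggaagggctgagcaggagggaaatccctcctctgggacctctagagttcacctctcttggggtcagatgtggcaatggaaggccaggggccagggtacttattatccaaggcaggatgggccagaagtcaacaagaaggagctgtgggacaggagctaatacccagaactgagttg
Cfd: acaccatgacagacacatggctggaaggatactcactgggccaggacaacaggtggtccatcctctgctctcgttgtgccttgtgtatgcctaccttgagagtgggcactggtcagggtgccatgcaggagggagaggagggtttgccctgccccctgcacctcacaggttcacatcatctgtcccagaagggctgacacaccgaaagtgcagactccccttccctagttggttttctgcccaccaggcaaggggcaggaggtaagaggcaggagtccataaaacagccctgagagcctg
The motifs were TATAAA (in 13.6% of the 32851 promoters in the table), CCAAT (37.4%), GGGCGG (35.7%), CACGTG (7.15%), TTGCNNAA (10.8%) and AGGTCA (16.3%). Lep held GGGCGG at -98 to -93 and TTGCNNAA, the core of a C/EBP site, at -55 to -48, counted back from -1 at the base before the start. The Retn and Cfd windows held none of the 6. Of the other members, Adipoq held CCAAT 3 times, Nampt held GGGCGG 5 times and AGGTCA 1 time, and Apln held GGGCGG 1 time. Rbp4 has 2 promoters in the table, of which 1 held CCAAT and the other held TATAAA, TTGCNNAA and GGGCGG 2 times. No 2 matches overlapped. A match is a run of letters and was not tested as a binding site.

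Nampt (chromosome 12, 32820335 to 32853369) encodes the rate-limiting enzyme of NAD salvage and differed from all other members in its pattern. It read 140, 133 and 121 CPM in MKO HFD and 135, 143 and 119 CPM in WT HFD. On NCD it read 198, 292 and 264 CPM in MKO and 133, 158 and 150 CPM in WT. The 3 MKO NCD libraries stood above all 9 others, which lay within 119 to 158 CPM. MKO against WT on NCD was 0.77 (SE 0.15, adjusted p = 0.0163), and HFD against NCD in MKO was -0.94 (SE 0.15, adjusted p = 0.0134). Both differences use the same 3 MKO NCD libraries.

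The genotype call of Nampt ended without WT NCD replicate 1 (adjusted p = 0.0661) or MKO NCD replicate 3 (0.0558). It also ended scaled to adipocyte markers (0.592) or with only the 6 NCD libraries (0.119). The diet call in MKO ended without MKO NCD replicate 3 (0.052) or MKO HFD replicate 2 (0.0589) or 3 (0.0615). With only the 6 MKO libraries it ended too (adjusted p = 0.0749). It held without the 3 WT NCD libraries (-0.94, adjusted p = 0.0206). On HFD the genotypes differed by -0.01 (95% confidence interval -0.33 to 0.31, adjusted p = 1). In WT the diets differed by -0.16 (95% confidence interval -0.48 to 0.16, adjusted p = 0.518). The interaction was -0.78 (SE 0.20, adjusted p = 0.110 with edgeR and 0.0205 with DESeq2). The RefSeq gene overlaps Gdap10, so the counts may hold reads of both.

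Apln (chromosome X, 48025146 to 48034853) encodes the precursor of apelin. It read 43.6, 55.5 and 27.9 CPM in MKO HFD and 12.7, 12.9 and 20.3 CPM in WT HFD. On NCD it read 15.4, 4.78 and 13.9 CPM in MKO and 6.07, 4.08 and 8.41 CPM in WT. The 3 MKO HFD libraries were the highest of the 12, and MKO NCD replicate 2, the library with many genes at 0, lay below both other MKO NCD libraries. None of the 4 pairwise comparisons called Apln. HFD against NCD gave 1.90 in MKO (SE 0.44, adjusted p = 0.0561) and 1.31 in WT (SE 0.43, adjusted p = 0.0615, and 0.012 without MKO NCD replicate 2). DESeq2 called the diet difference in MKO (1.88, adjusted p = 0.00123) and in WT (1.26, adjusted p = 0.0263), limma-voom called it in MKO (2.04, adjusted p = 0.0307), and edgeR with only the 6 WT libraries called it in WT (1.27, adjusted p = 0.0297).

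MKO against WT gave 1.47 for Apln on HFD (SE 0.43, adjusted p = 0.101). DESeq2 called it at 0.0171, and edgeR called it at 0.0248 without MKO NCD replicate 2 and at 0.0189 with only the 6 HFD libraries. Averaged over genotypes, HFD against NCD was 1.60 (SE 0.31, adjusted p = 0.00473) and stood without each of the 12 libraries, at 0.013 or less. Averaged over diets, MKO against WT was 1.17 (SE 0.31, adjusted p = 0.0440). That call ended without any 1 of 9 libraries, which were all of the WT HFD replicates (0.053 to 0.109), WT NCD replicates 1 (0.0791) and 2 (0.0878), MKO NCD replicates 1 (0.0833) and 3 (0.0905) and MKO HFD replicates 1 (0.0932) and 2 (0.117).

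Rarres2 (chromosome 6, 48569696 to 48572845, overlapping Lrrc61) encodes prochemerin, which proteases trim to the active ligand. It read 268, 240.5 and 314 CPM in MKO HFD and 318, 260 and 320 CPM in WT HFD. On NCD it read 186, 191 and 175 CPM in MKO and 118, 182 and 142 CPM in WT. All 6 HFD libraries exceeded all 6 NCD libraries, and the genotypes overlapped on both diets. HFD raised it in WT by 1.02 (SE 0.16, adjusted p = 0.00197), which stood in all 12 fits without 1 library. In MKO the diet difference was 0.58 (SE 0.16, adjusted p = 0.106), and DESeq2 called it (0.56, adjusted p = 0.0194).

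HFD against NCD averaged over genotypes called 3 members higher and 3 lower, where it called 21.3% of all genes, 11.0% higher and 10.2% lower. Lep (1.88), Apln (1.60) and Rarres2 (0.80) rose, Cfd (-3.34), Retn (-1.05) and Nampt (-0.55) fell, and each of these 6 calls stood in all 12 fits without 1 library. MKO against WT averaged over diets called 4 members higher and none lower, where it called 7.26% of all genes, 4.04% higher and 3.22% lower. These were Retn, Rbp4, Apln and Nampt (0.38, adjusted p = 0.0485). Nampt passed in only 1 of the 12 fits without 1 library, that without MKO NCD replicate 1, and reached adjusted p = 0.115 in the others.

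The interaction called none of the 8 members with edgeR, where it called 0.261% of all genes, 0.118% higher and 0.143% lower. Of the members 4 had an unadjusted p below 0.05, namely Lep, Retn, Cfd and Nampt. Of all genes, 13.1% had an unadjusted p below 0.05. DESeq2 called those 4 members, where it called 1162 genes (5.72%), and limma-voom called none of the 8, where it called 173 genes (0.852%).

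Ratios within a library do not depend on its scaling. The TPM ratio of Lep to Adipoq was 0.436, 0.544 and 0.641 in MKO HFD and 1.05, 1.34 and 0.835 in WT HFD. On NCD it was 0.248, 0.271 and 0.106 in MKO and 0.112, 0.0728 and 0.165 in WT. All MKO HFD libraries lay below all WT HFD libraries and above all NCD libraries, while the NCD groups overlapped. No test was run on ratios.

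The TPM ratio of Cfd to Adipoq was 0.986, 0.960 and 0.429 in MKO HFD and 0.355, 0.223 and 0.250 in WT HFD. On NCD it ranged from 2.52 to 4.22 in MKO and from 2.67 to 4.10 in WT. The ratio of Retn to Adipoq was 1.04, 0.995 and 0.605 in MKO HFD and 0.205, 0.175 and 0.321 in WT HFD, and 0.727 to 0.891 in MKO NCD and 0.568 to 0.813 in WT NCD. Relative to Adipoq, WT HFD libraries were the lowest of all for both genes. MKO HFD overlapped the NCD libraries for Retn and not for Cfd.

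**Figure D3:**
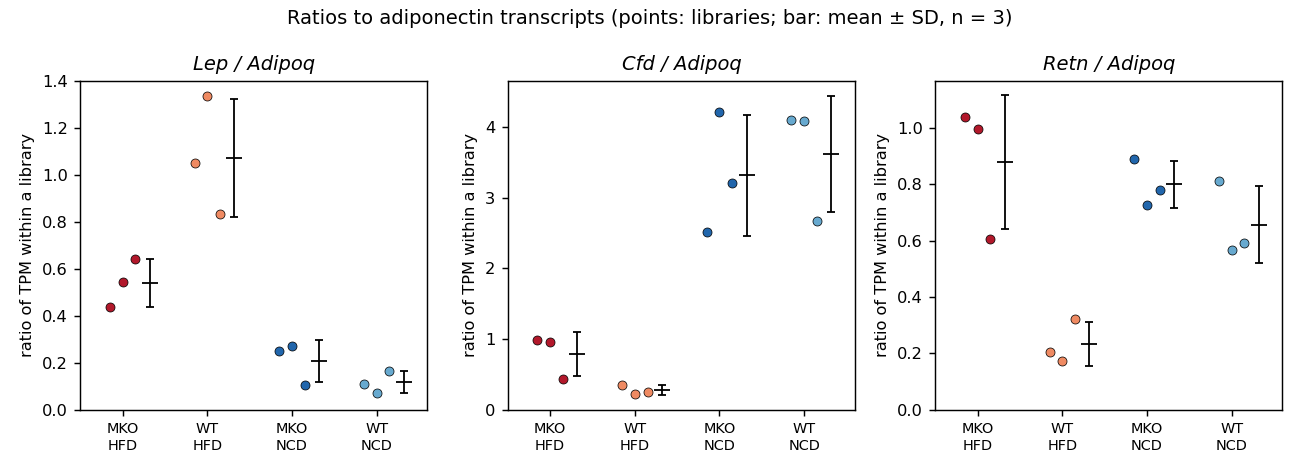
Ratios of the authors' TPM of Lep, Cfd and Retn to that of Adipoq within each of the 12 libraries (points), with the mean and SD of 3 libraries per group. For Lep over Adipoq the MKO HFD libraries (0.436 to 0.641) lie between WT HFD and the NCD groups, and for Retn over Adipoq they overlap the NCD groups.

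Markers of other cells differed between the same groups. On HFD, 14 of the 18 macrophage markers were lower in MKO and none higher (median -2.04), with summed levels of 742 to 1725 CPM in MKO HFD and 4032 to 6313 CPM in WT HFD. That count was 0 without WT HFD replicate 2 or MKO HFD replicate 1 or 2, 1 without WT HFD replicate 1 and 9 without MKO NCD replicate 1. In WT, 14 of 18 were higher on HFD than on NCD, where the sum was 615 to 1472 CPM, and 14 were so in each fit without 1 library. On NCD the sum was 793 to 1135 CPM in MKO, and edgeR called none between the genotypes (1 with an unadjusted p below 0.05, 1 called by DESeq2 and 0 by limma-voom). No macrophage marker was at 0 in every library of a group. Of all genes, 2.24% were called lower in MKO on HFD, and 9.50% higher on HFD in WT.

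Of the 16 adipocyte markers, 7 were higher in MKO than in WT on HFD and none lower (median 0.49). On NCD 4 were higher and none lower (median 0.61). Of all genes, 1.34% were called higher on HFD and 2.22% on NCD. Plin1, which coats the lipid droplet, was 1054 ± 77.7 CPM in MKO HFD and 583 ± 38.3 CPM in WT HFD (0.85, adjusted p = 0.0129), and 1439 ± 138 CPM in MKO NCD and 900 ± 162 CPM in WT NCD (0.68, adjusted p = 0.0255; SD, n = 3 each). The HFD count of 7 fell to 3 or 2 without WT HFD replicate 1 or 2 and to 0 without MKO HFD replicate 1 or 2. The NCD count of 4 was 2 without WT NCD replicate 1 or MKO NCD replicate 3 and 7 without WT NCD replicate 2. The part that adipocyte share, macrophage share and epididymis RNA have in the adipokine values was not tested.

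Scaling the libraries to their adipocyte markers moved the median of all genes to -0.80 for MKO against WT on NCD and to -0.34 on HFD. On NCD Lep was then 0.65 (adjusted p = 0.121) and Nampt 0.11 (adjusted p = 0.592), and neither was called. On HFD Rbp4 was 0.61 (adjusted p = 0.091), while Retn and Cfd were still called. Averaged over diets Rbp4 (0.35, adjusted p = 0.0576), Apln (0.65, adjusted p = 0.145) and Nampt (-0.13, adjusted p = 0.413) were no longer called, Cfd was called higher (0.72, adjusted p = 0.0489) and Rarres2 was called lower (-0.38, adjusted p = 0.0242). The 4 diet calls in WT stood under this scaling. Of the 16 adipocyte markers, 5 were called higher and 6 lower on HFD than on NCD in WT. The scaling between diets thus rests on markers that themselves differed with diet, in both directions.

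**Figure D4:**
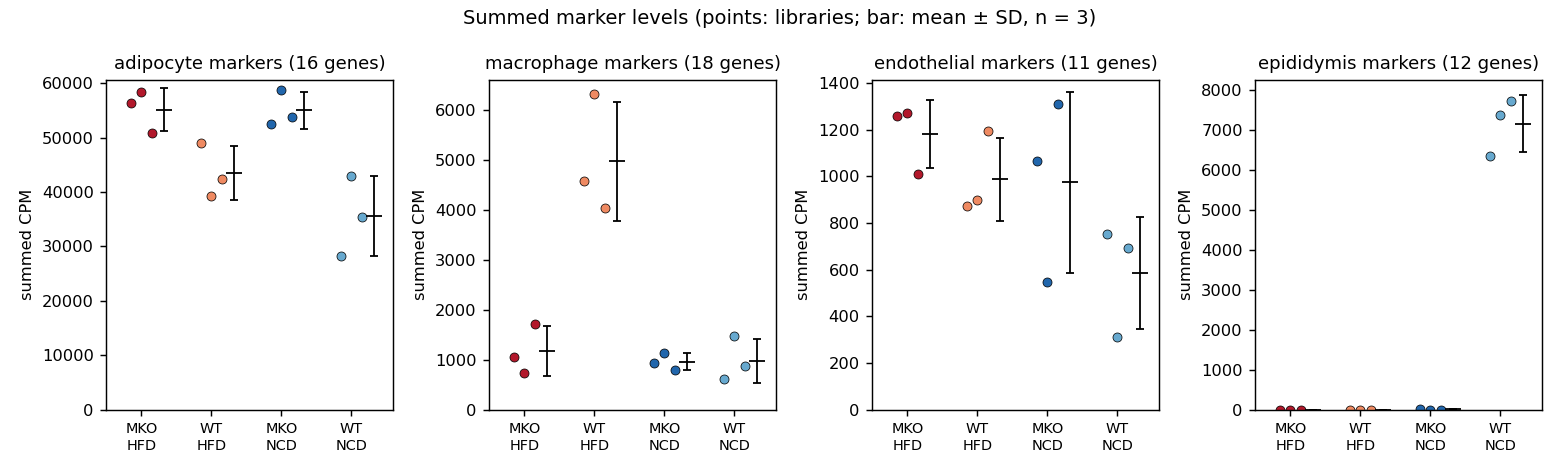
Summed CPM of 16 adipocyte, 18 macrophage, 11 endothelial and 12 epididymis markers in each library (points), with the mean and SD of 3 libraries per group. Macrophage markers are highest in WT HFD (4032 to 6313 CPM) and epididymis markers are present in WT NCD.

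Of 36 other tested genes for proteins secreted by fat, 3 were higher and 6 lower in MKO than in WT on HFD (median -0.74). This comparison called 1.34% of all genes higher and 2.24% lower. Agt, the precursor of angiotensin, was higher, at 109 ± 28.6 CPM in MKO HFD and 32.4 ± 10.7 CPM in WT HFD (1.76, SE 0.33, adjusted p = 0.0200). Vegfa, the angiogenic growth factor, was also higher (0.97, SE 0.20, adjusted p = 0.0302), but not scaled to adipocyte markers (adjusted p = 0.222). Grn, which encodes progranulin, was lower, at 275 ± 59.7 CPM in MKO HFD and 634 ± 63.5 CPM in WT HFD (-1.21, SE 0.16, adjusted p = 0.00945), as was Metrnl, which encodes meteorin-like (-1.62, SE 0.27, adjusted p = 0.0134). Macrophage markers were also lower in MKO on HFD (median -2.04), and their part in these calls was not tested. Without MKO HFD replicate 1 or 2 none of the 9 was called, in a comparison that then called 7 or 13 genes in all. Without WT HFD replicates 1, 2 or 3 the higher count was 1, 0 or 1 and the lower count 1, 1 or 3.

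In WT, 10 of these 36 genes were higher and 4 lower on HFD than on NCD (median 0.87). That comparison called 9.50% of all genes higher and 8.28% lower. Agt fell with HFD in WT (-3.16, SE 0.35, adjusted p = 3.13e-04) and in MKO (-1.76, adjusted p = 0.0256). The MKO call of Agt ended without MKO NCD replicate 2 or 3 or any MKO HFD replicate, at adjusted p of up to 0.103. It also ended with the replicate block and with only the 6 MKO libraries (0.0533 in the last). Grn (1.55, SE 0.16, adjusted p = 2.42e-04) and Fstl1, which encodes a secreted glycoprotein (1.76, SE 0.24, adjusted p = 7.71e-04), rose in WT. So did Orm1, an acute-phase protein with near-identical copies that may share reads (1.77, SE 0.21, adjusted p = 4.96e-04). Leaving out 1 library, the higher count became 17 without MKO NCD replicate 2, and the lower count 2 without WT NCD replicate 2 or WT HFD replicate 2.

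On NCD, Orm1 was the only one of the 36 called between the genotypes, higher in MKO at 174 ± 17.0 CPM against 67.6 ± 9.27 CPM in WT (1.37, SE 0.21, adjusted p = 0.0063). It stood in all 12 fits without 1 library, and 2 genes were called higher without MKO NCD replicate 1. Of all genes, 2.22% were called higher and 2.13% lower in this comparison. Nrg4, a growth factor that adipocytes secrete, followed at 0.89 (adjusted p = 0.0575, and 0.0383 without MKO NCD replicate 1). In MKO mice HFD against NCD called 2 of the 36 higher and 3 lower (median 0.31), against 1.04% and 0.966% of all genes. The higher count was 1 without WT NCD replicate 2, MKO NCD replicate 1 or 2 or WT HFD replicate 2 or 3, and 0 without MKO NCD replicate 3, WT HFD replicate 1 or any MKO HFD replicate. The lower count was 1 without MKO NCD replicate 3 or MKO HFD replicate 1 and 0 without MKO HFD replicate 2 or 3. Angptl2, an angiopoietin-like protein, was lower (-0.67, adjusted p = 0.0146). Its call ended without MKO HFD replicate 2 or 3, scaled to adipocyte markers (0.12) or with only the 6 MKO libraries (0.0898). Ccl2, the monocyte attractant, was higher (2.30, adjusted p = 0.0315) and lost the call without any 1 of 8 libraries, which were the MKO HFD and WT HFD replicates and MKO NCD replicates 1 and 3. The Ccl2 call also ended with limma-voom, with the replicate block and with only the 6 MKO libraries (0.143 in the last).

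Of 14 tested adipokine receptor genes, Cmklr1, the signalling receptor of chemerin, was called higher in MKO than in WT on both diets. It was 168 ± 20.0 CPM in MKO HFD and 79.6 ± 15.2 CPM in WT HFD (1.08, SE 0.20, adjusted p = 0.0184). On NCD it was 168 ± 19.5 CPM in MKO and 91.6 ± 24.1 CPM in WT (0.87, SE 0.20, adjusted p = 0.0341). Its ligand gene Rarres2 was not called between the genotypes on either diet. The HFD call of Cmklr1 ended without WT HFD or MKO HFD replicates 1 or 2, at adjusted p of up to 0.0987. The NCD call stood in 6 of the 12 fits and ended without WT NCD replicate 1 or 3, MKO NCD replicate 2 or 3, WT HFD replicate 2 or MKO HFD replicate 2, at up to 0.104. Scaled to adipocyte markers neither call of Cmklr1 stood, at 0.72 on HFD (adjusted p = 0.065) and 0.24 on NCD (adjusted p = 0.363), nor did the NCD call with only the 6 NCD libraries (adjusted p = 0.145). Without WT NCD replicate 2, 2 receptor genes were called higher on NCD. MKO against WT called 1.34% of all genes higher on HFD and 2.22% on NCD.

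C3ar1, the receptor of the complement fragment C3a, was the only receptor gene called lower in MKO on HFD (-2.82, SE 0.54, adjusted p = 0.0213). It read 21.3 ± 15.5 CPM in MKO HFD and 151 ± 57.6 CPM in WT HFD, and lost the call without WT HFD or MKO HFD replicates 1 or 2. Of all genes, 2.24% were called lower in that comparison. The lower count of receptor genes was 2 without WT NCD replicate 3 or MKO HFD replicate 3. It was 4 without MKO NCD replicate 2. In WT, 5 of the 14 receptor genes were higher on HFD and none lower (median 0.91), against 9.50% and 8.28% of all genes. They included C3ar1 (3.54, adjusted p = 0.00182), Cap1, a proposed receptor of resistin in human monocytes (0.80, adjusted p = 0.00392), C5ar2, a complement receptor (2.68, adjusted p = 0.00428), and Tlr4, another proposed resistin receptor (1.02, adjusted p = 0.0167). The count was 3 without WT HFD replicate 1 or 2, and Tlr4 was also lost without WT NCD replicate 1. Macrophages carry C3ar1, C5ar2 and Tlr4 too, and the summed macrophage markers were 4032 to 6313 CPM in WT HFD and 615 to 1472 CPM in WT NCD, whose part in these calls was not tested. In MKO, edgeR, limma-voom and DESeq2 called no receptor gene between the diets, and 1 had an unadjusted p below 0.05. Cap1 was at 0.40 (adjusted p = 0.201).

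Of 11 tested genes for proteins that process or partner the adipokines, edgeR called none between the genotypes on either diet. On each diet 3 had an unadjusted p below 0.05, and DESeq2 called 2 on HFD and 3 on NCD and limma-voom 1 on each. In WT, 4 were higher on HFD and none lower, where 9.50% of all genes were called higher and 8.28% lower. Cfb, which encodes factor B, the substrate of adipsin, was 525 ± 44.7 CPM in WT HFD and 205 ± 67.2 CPM in WT NCD (1.36, SE 0.28, adjusted p = 0.00774). Complement C3 rose as well (1.43, SE 0.44, adjusted p = 0.0442), in the comparison in which Cfd fell. Fap, a membrane protease (1.90, adjusted p = 6.85e-04), and Mme, the peptidase neprilysin (1.23, adjusted p = 0.00893), were the others. The calls of Cfb, Fap and Mme stood in all 12 fits without 1 library. C3 lost its call without WT NCD replicate 1 or 3, MKO NCD replicate 3, MKO HFD replicate 1 or any WT HFD replicate, at adjusted p of up to 0.133.

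In MKO the diet difference of Cfb was 0.73 (adjusted p = 0.224). C3 was 717 ± 372 CPM in MKO HFD and 1689 ± 257 CPM in WT HFD (-1.24, SE 0.43, adjusted p = 0.177). Masp1, whose product MASP-3 activates pro-factor D in mouse and human, was 13.2 ± 2.55 CPM in MKO NCD and 3.49 ± 0.961 CPM in WT NCD (1.92, SE 0.50, adjusted p = 0.0560, and 0.0230 without MKO HFD replicate 3). Its groups on NCD did not overlap. Counts are per gene, so transcripts for MASP-3 were not counted apart from any others of Masp1.

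On NCD, MKO against WT called 2.22% of all genes higher and 2.13% lower. Of 12 other genes of NAD salvage and use, 1 was higher and none lower in MKO than in WT on NCD (median -0.04). That gene was Nnmt, which methylates nicotinamide, the substrate of Nampt (0.72, SE 0.16, adjusted p = 0.0313). Its call ended without WT NCD replicate 1 or 3, MKO NCD replicate 2 or 3 or MKO HFD replicate 1 or 2, at up to 0.0839, and also scaled to adipocyte markers (adjusted p = 0.535) or with only the 6 NCD libraries (0.161). On HFD none was called between the genotypes by edgeR, DESeq2 or limma-voom, and 1 had an unadjusted p below 0.05. In MKO, edgeR and limma-voom called none between the diets, 2 had an unadjusted p below 0.05 and DESeq2 called 1, with Sirt3 at -0.55 (adjusted p = 0.213) and 0.0393 with DESeq2. In WT, where Nampt was not called, Cd38 (0.73, adjusted p = 0.0101), Nnmt (0.65, adjusted p = 0.0164) and Parp1 (0.49, adjusted p = 0.0228), enzymes that use NAD or its precursor, were higher on HFD, and the mitochondrial deacylase Sirt3 was lower (-1.06, adjusted p = 0.00552). HFD against NCD in WT called 9.50% of all genes higher and 8.28% lower. The higher count of NAD genes was 1 without WT NCD replicate 1 or 3 or WT HFD replicate 1. Their lower count was 3 without MKO NCD replicate 2.

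Between the genotypes on HFD, 1.34% of all genes were called higher in MKO and 2.24% lower. Among 14 transcription factors that act on adipokine genes, 5 were higher in MKO than in WT on HFD and none lower (median 0.49). They included Klf15, a zinc finger factor of adipocytes (2.83-fold, SE 0.29 on the log2 scale, adjusted p = 0.0213), Pparg, the master factor of adipocytes (0.81, SE 0.18, adjusted p = 0.0369), Srebf1, a factor of lipid synthesis (0.89, SE 0.20, adjusted p = 0.0375), and Rxra, the partner of Pparg (0.53, SE 0.13, adjusted p = 0.0449). The count was 0 without WT HFD replicate 1 or MKO HFD replicate 1 or 2, 1 without WT HFD replicate 2 or MKO NCD replicate 3, and 2 without WT HFD replicate 3 or MKO NCD replicate 1. The HFD call of Rxra stood in 3 of the 12 fits without 1 library, with adjusted p up to 0.208 in the others. It also ended with no count filter, with the replicate block and without the 3 WT NCD libraries. On NCD 2 factors were higher, Foxo1 (0.73, adjusted p = 0.0148) and Rxra (0.67, adjusted p = 0.0153), where 2.22% of all genes were called higher. That count was 1 without WT NCD replicate 1 and 0 without MKO NCD replicate 3. Scaled to adipocyte markers, Pparg (adjusted p = 0.238), Srebf1 (0.169) and Rxra (0.701) were not called on HFD, nor were Foxo1 (0.778) and Rxra (0.965) on NCD, while Klf15 was (0.0317). With only the 6 NCD libraries, Foxo1 (0.139) and Rxra (0.0904) were not called.

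In WT, 3 of these factors fell on HFD and 1 rose, where 8.28% of all genes were called lower and 9.50% higher. Klf15 fell (-1.38, adjusted p = 0.00756), as did Cebpa, the C/EBP factor of mature adipocytes (-0.95, adjusted p = 0.0107), and Srebf1 (-0.67, adjusted p = 0.0405), while Hif1a, the oxygen-sensing factor, rose (0.75, adjusted p = 0.0168). Only Klf15 stood in all 12 fits without 1 library, while Srebf1 stood in 6, with adjusted p up to 0.144 in the others. The lower count was 1 without WT HFD replicate 2, and Hif1a was lost without WT NCD replicate 1 or WT HFD replicate 1 or 2. In MKO, 1 factor was called between the diets, where 2.01% of all genes were called. Fosl2, an AP-1 factor (0.87, adjusted p = 0.0426), was higher on HFD and stood in 2 of the 12 fits, ending at up to 0.128 without any replicate other than WT HFD replicate 2 or MKO HFD replicate 1. Scaled to adipocyte markers, the WT diet calls of Hif1a (adjusted p = 0.149), Cap1 (0.196), Tlr4 (0.0699), C3 (0.0669), Cd38 (0.262) and Parp1 (0.544) ended, as did the MKO diet calls of Fosl2 (0.192) and Angptl2 (0.12).

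The genes whose pattern over the 12 libraries was most like a member's were sought among 13546 genes by the root mean square difference of centred log2 CPM. Gsta3 was nearest to Retn (0.32, where Retn itself varied by 1.18), and was nearest again in the 11 libraries without MKO NCD replicate 2. Dennd2d was nearest to Cfd (0.42, where Cfd varied by 1.91) and Agt came after it, in both sets of libraries. Chchd6 (0.12) and Isoc2a (0.13) were the nearest pair to Adipoq, which varied by 0.46, and Gpt (0.15) and Cib2 (0.18) were nearest to Rbp4, which varied by 0.52. Prnp was nearest to Rarres2 (0.09, with a variation of 0.45) and St3gal1 to Nampt (0.17, with a variation of 0.41). Lhfpl2 was nearest to Lep (0.34) and Col5a3 to Apln (0.44). Without MKO NCD replicate 2 other genes were nearest to each member but Retn and Cfd, among them Isoc2a for Adipoq, Gstz1 for Rbp4 and Mgmt for Rarres2.

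The authors' deposited table gives its own folds and adjusted p for MKO against WT. On HFD it lists Retn 5.65-fold higher (6.38e-06), Cfd 4.38-fold (1.53e-04), Rbp4 1.93-fold (1.62e-04), Apln 2.77-fold (1.53e-06) and Adipoq 1.57-fold (0.0045). On NCD the authors' deposited table lists Lep 2.33-fold higher (0.0294), Retn 1.57-fold (0.0325), Rbp4 1.58-fold (0.00182) and Nampt 1.63-fold (0.00534). Of these, Apln and Adipoq on HFD and Retn and Rbp4 on NCD were not called by the edgeR fit used here, whose folds were 2.77, 1.56, 1.64 and 1.65.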

How the data were processed

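Gonadal fat RNA of 12 mice was sequenced after a stranded mRNA library kit, per the labels' protocols. The submitters' processing notes name the genome mm10 and the tools HISAT2 2.1.0, bcl2fastq 2.20.0, DESeq2, Trimmomatic and StringTie 1.3.4d, with no order. Whether counting used strand is not given in the sources used here. The deposited table holds raw read counts, which are tested here, and the authors' TPM, which serve for levels between genes. The authors' deposited FPKM and normalized log2 values are not used. The authors' deposited signed fold, a score per gene, and adjusted p-value for each genotype comparison are quoted once.

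In R 4.3.3, edgeR 4.0.16 (filterByExpr by group, TMM, robust quasi-likelihood F test) fitted all 12 libraries by group, and Benjamini-Hochberg adjustment ran over 20297 genes with a threshold of 0.05. SE is the log2 fold change over the square root of F. CPM use TMM library sizes. The fit was tested on simulated data. Totals were 52.9 to 72.7 M counts, and counting error was not compared with the spread between mice. MKO NCD replicate 2, at 68.6 M counts, had 57.3% of the table's genes at 0. Other settings tried were size factors by RLE and upper quartile, other count filters, no robust estimation, DESeq2 1.42.0, limma-voom (limma 3.58.1), a replicate block, scaling to adipocyte markers, only the 6 libraries compared, and leaving out each library. A fit without the 3 WT NCD libraries was added after the data were seen.

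All 8 members are named, with at most 4 genes of smallest p per list and comparison and the 3 genes of most like pattern (mean of at least 1 CPM, prior count 2). The members and lists were chosen with earlier results of these data known. Figures were drawn with matplotlib 3.10.9 in Python 3.11.15.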

Additional observations from a re-analysis of the deposited data

How the results depend on the processing

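The 4 diet calls in WT and the 6 averaged over genotypes stood in every alternative run. All of these runs used WT NCD libraries, each of which carried epididymis transcripts, so they cannot separate diet from that carry-over in WT. The number of members called in MKO against WT on NCD, 2, was 1 with RLE or upper-quartile size factors, no count filter or no robust estimation, 0 scaled to adipocyte markers or with only the 6 libraries compared, and 0 to 2 leaving out 1 library. On HFD it was 3, and 0 to 4 leaving out 1 library. HFD against NCD in MKO called 2, 5 with DESeq2, 0 with only the 6 libraries compared, and 0 to 2 leaving out 1 library. The interaction called 0, and 4 with DESeq2. The average over diets called 4, 2 with RLE, and 2 to 4 leaving out 1 library. With only the 6 libraries compared, few degrees of freedom remain for the spread.

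No pairing of samples by replicate number was seen, though the correlations below cannot exclude one. Deviations from the group means had correlations of -0.14 to 0.16 between libraries of the same number and -0.18 to 0.18 between others. The fit with a replicate block called 1 member on NCD, 1 on HFD, 1 for diet in MKO and 2 averaged over diets, with 482, 262, 160 and 834 genes in all, against 882, 725, 408 and 1473 without the block, and 12 against 53 for the interaction.

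Of the values whose sign turned, Nampt averaged over diets (0.38, adjusted p = 0.0485) had been called. Scaled to adipocyte markers, MKO against WT on NCD was -0.22 for Adipoq, -0.36 for Cfd and -0.31 for Rarres2, HFD against NCD in WT was -0.075 for Rbp4, and MKO against WT averaged over diets was -0.13 for Nampt and -0.38 for Rarres2 (adjusted p = 0.0242). MKO against WT on HFD was 0.032 for Nampt with upper-quartile factors and 0.0023 without the 3 WT NCD libraries. Leaving out 1 library gave -0.081 to 0.052 for it, -0.0059 to 0.77 for Cfd on NCD, -0.29 to 0.039 for Retn between diets in MKO, and -0.10 to 0.52 for Adipoq and -9.4e-04 to 0.36 for Rbp4 in the interaction. The cause was not tested.

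Genes called in all moved by over 1.5 times. MKO against WT on NCD called 2349 with DESeq2, 1408 with limma-voom, 4556 scaled to adipocyte markers, 53 with only the 6 libraries and 391 to 1028 leaving out 1. On HFD it called 1738 with DESeq2, 2260 with only the 6 libraries and 7 to 1580 leaving out 1. HFD against NCD in MKO called 1796 with DESeq2, 146 scaled to adipocyte markers, 41 with only the 6 libraries and 75 to 480 leaving out 1. The interaction called 1162 with DESeq2, 173 with limma-voom, 15 scaled to adipocyte markers and 2 to 288 leaving out 1. The average over diets called 3110 with DESeq2 and 5986 scaled to adipocyte markers, and 614 to 2378 leaving out 1 library, against 1473. HFD against NCD in WT called 3610, and 1884 to 6789 leaving out 1. Averaged over genotypes it called 4322, and 2836 to 6585 leaving out 1.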
